A study of Homo sapiens with 17 samples.

Results

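The BTG and TOB antiproliferative genes BTG1, BTG2, BTG3, TOB1 and TOB2 were followed in HEK-293T cells, a line derived from human embryonic kidney, treated with emetine, a drug that blocks translation elongation. The 5 genes were taken by symbol, and all 5 were among the 19222 genes of the 1 h experiment and among the 9982 genes of the 2 h experiment. In the 1 h experiment, 3 untreated libraries and 3 libraries from cells given 1.8 µM emetine were labeled with 500 µM 4-thiouridine (s4U) for 1 h, and 1 untreated and 1 emetine library received no s4U. The 2 h experiment had 9 libraries with 250 µM s4U per the labels, 3 each of untreated cells and of cells given emetine at a low (1.8 µM) or high (240 µM) dose. All cells were wild type. The labels do not say that replicates came from separate cultures, so p-values measure the spread between these libraries, which may be technical.

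BTG and TOB proteins share an N-terminal BTG domain that binds the CAF1 deadenylases CNOT7 and CNOT8 of the CCR4-NOT complex, the machine that shortens poly(A) tails before mRNA decay. TOB1 and TOB2 also bind the cytoplasmic poly(A)-binding protein through PAM2 motifs in a longer C-terminal tail. The proteins slow proliferation when overproduced, and BTG2 is a well-known target of p53. Some of their mRNAs are counted among primary response transcripts, which are made and destroyed quickly.

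The libraries held 22246279 to 40018063 reads given to a gene, and the 5 genes held between 425 and 3193 reads each in any library. Of the HEK-293T markers, VIM had a median of 583 counts scaled to library size (CPM) and NEFM 162 CPM, whereas ALB, the liver marker, had 0.0661 CPM and PTPRC, the leukocyte marker, was not listed. COL1A1, a marker of fibroblasts, was present at 22.3 CPM. Emetine replicate 3 stood apart from its group: the standard deviation of its genes' log2 deviation from the group mean was 0.271, against 0.151 and 0.167 in the other emetine libraries and 0.112 to 0.131 in the untreated libraries. Its deviation rose with transcript length (Spearman's rho 0.725 across 12833 genes, which are not independent replicates), whereas that of both other emetine libraries, measured from the same mean, fell with it (rho −0.628 and −0.629). Calls on the 5 genes and on the genes named from the lists are therefore also given without that library. Untreated replicate 1 had the lowest labeling, with a median fraction new over all genes of 9.26%, against 12.3% and 14.7% in the other untreated libraries and 10.3% to 11.04% in the emetine libraries.

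The genes lie on separate chromosomes of GRCh38 in the GENCODE 44 annotation. BTG1 (ENSG00000133639.6) lies on chromosome 12 from 92140278 to 92145846 on the minus strand, and BTG2 (ENSG00000159388.6) on chromosome 1 from 203305491 to 203309602 on the plus strand. BTG3 (ENSG00000154640.15) lies on chromosome 21 from 17593653 to 17612945, TOB1 (ENSG00000141232.5) on chromosome 17 from 50862223 to 50867978 and TOB2 (ENSG00000183864.5) on chromosome 22 from 41433494 to 41446801, all on the minus strand. Their canonical transcripts had 2 exons, except for BTG3 with 5, against a median of 9 exons over the 10409 coding genes with enough reads. The coding sequences ran from 477 bases in BTG2 and 516 in BTG1 to 759 in BTG3, 1035 in TOB2 and 1038 in TOB1, all below the median of 1413 bases. The 3′ UTR was long in BTG1 (3802 bases), TOB2 (2817) and BTG2 (2164) and short in TOB1 (757) and BTG3 (440), against a median of 1388 bases.

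AU-rich elements in the 3′ UTR are known decay signals, and the elements of 3 members are shown because these transcripts turned over quickly. The heptamer TATTTAT was searched on the sense strand of the 3′ UTR of the canonical transcript, and 36.8% of the 10409 genes held at least 1. Among BTG1, BTG3, TOB1 and TOB2, it occurred once in BTG1 and TOB2, at bases 3293 and 914 of the 3′ UTR, and in BTG3 at bases 245 and 349, and it was not found in TOB1. Capitals mark the heptamer, read 5′ to 3′ with up to 10 bases on each side:
BTG1, base 3293: atagatttctTATTTATctgaaggtat
BTG3, base 245: tggacttgagTATTTATatattgtgca
BTG3, base 349: gtatgtaagtTATTTATatacaaggaa
TOB2, base 914: cgcaagtcctTATTTATatgtgaggct
The shorter pentamer ATTTA, which lies within the heptamer, was dense in BTG3 and TOB1, with 6.82 and 5.28 copies per kilobase of 3′ UTR, higher than in 96.6% and 92.5% of genes. It was sparser in BTG1 (1.32), TOB2 (1.07) and BTG2 (0.924) than the median of 1.74. Codon content differed widely between the members. The share of codons ending in G or C was 90.6% in BTG2, above 98.9% of genes, then 73.9% in TOB2, 61.6% in BTG1, 45.7% in TOB1 and 38.3% in BTG3, against a median of 58.3%.

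The promoters of BTG1 and TOB2 are printed because these 2 genes carry the calls described below. Both are RefSeq sequences of GRCh38.p14 on the minus strand, from 250 bases before to 50 bases after the start site. Motifs were searched on both strands: the core TGACG of the cAMP response element, the TATA box TATAAA, the CCAAT box CCAAT and the forkhead site TGTTTAC, which are in capitals, and the GC box GGGCGG, which is not.
BTG1, chr12:92145797-92146096: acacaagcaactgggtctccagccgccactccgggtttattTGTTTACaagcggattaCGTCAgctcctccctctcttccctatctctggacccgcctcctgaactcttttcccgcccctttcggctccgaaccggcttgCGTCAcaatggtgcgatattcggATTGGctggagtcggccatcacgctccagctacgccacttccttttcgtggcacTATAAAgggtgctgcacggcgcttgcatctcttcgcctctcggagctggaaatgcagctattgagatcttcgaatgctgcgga
TOB2, chr22:41446752-41447051: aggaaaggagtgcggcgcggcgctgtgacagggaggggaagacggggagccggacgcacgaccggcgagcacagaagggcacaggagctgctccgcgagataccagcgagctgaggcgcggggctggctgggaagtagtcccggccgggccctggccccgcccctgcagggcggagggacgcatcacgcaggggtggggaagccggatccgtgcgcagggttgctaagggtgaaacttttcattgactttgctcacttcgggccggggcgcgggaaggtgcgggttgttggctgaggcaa
The BTG1 promoter held the forkhead motif 209 bases before the start site, TGACG on the reverse strand at 192 and 110 bases before it, a reverse CCAAT box at 87 and a TATA box at 33. The TOB2 and BTG3 promoters held no capitalized motif, while BTG2 and 1 of the 2 RefSeq starts of TOB1 held TGACG and CCAAT. A GC box was found in every member, in TOB1 only at that same start. In TOB2 it lay 93 and 82 bases before the start site, and in BTG1 138 bases before it. Of 35116 promoters of this length, 24.6% held TGACG, 34.6% CCAAT, 11.5% TATAAA, 3.42% the forkhead motif and 45.0% the GC box. A match is a description of letters and not a site of binding.

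In untreated cells the members were expressed at similar levels, apart from a lower BTG2. In reads per kilobase of transcript, scaled to library size (RPKM), BTG3 had 14.9 ± 2.59 (SD, n = 3), TOB2 12.7 ± 1.10, TOB1 12.2 ± 1.88 and BTG1 11.9 ± 0.488. These neighbours overlapped between libraries. BTG2 was lowest at 6.68 ± 0.606 RPKM, and its libraries did not overlap those of any other member. After 1 h of emetine BTG1 was first, at 17.2 ± 0.748 RPKM, and did not overlap BTG3 at 14.7 ± 1.11 RPKM. TOB2 followed with 13.9 ± 2.24 and TOB1 with 12.5 ± 1.98 RPKM, which overlapped each other. TOB2 also overlapped BTG3, and it overlapped BTG1, since its emetine replicate 3 at 16.42 RPKM was just above the lowest BTG1 library at 16.40 RPKM, and BTG2 was again lowest at 8.03 ± 1.03 RPKM. In the 2 h tables the authors' mean of normalized counts over all 2 h libraries was 1758 for TOB2, 975 for BTG1, 584 for TOB1, 385 for BTG3 and 335 for BTG2, against a median of 845 over all genes. Unlike RPKM, these counts are not corrected for length. Per kilobase of transcript they were 405 for TOB2, 273 for BTG3, 261 for TOB1, 211 for BTG1 and 123 for BTG2. These pooled means hold no value per sample, so the 2 h doses were not compared.

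**Figure D1:**
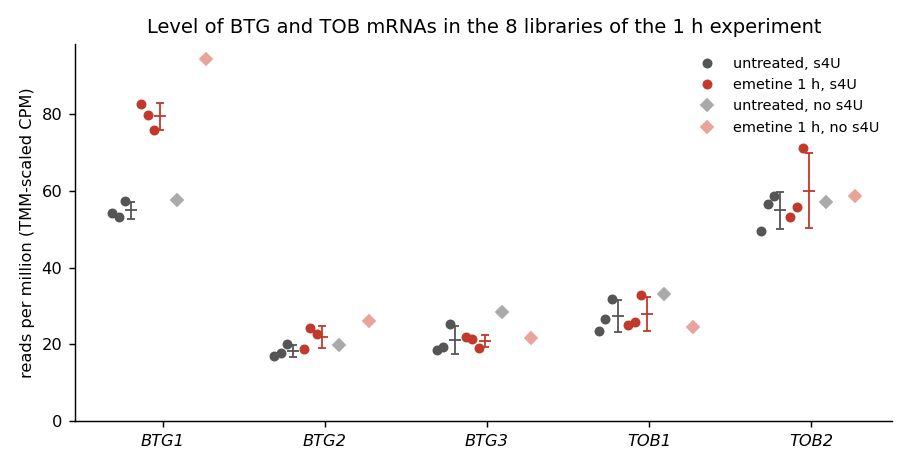
Level of the BTG and TOB mRNAs in each of the 8 libraries of the 1 h experiment, in CPM after TMM scaling over the 8 libraries. Circles are libraries with s4U, with the mean and SD of 3 beside them, and diamonds are the single libraries without s4U. The emetine circles of BTG1 lie between 75.9 and 82.8, all above its untreated ones.

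The first question was whether 1 h of emetine changed the amount of these mRNAs. BTG1 rose 1.45-fold and was the only member called. It had 54.1, 53.2 and 57.5 CPM in the untreated libraries and 82.9, 79.7 and 75.8 CPM in the emetine libraries. The lowest emetine value was above the highest untreated one. The log2 fold change was 0.53 (SE 0.084, adjusted p = 0.0163, edgeR's quasi-likelihood test with Benjamini-Hochberg adjustment over 13776 genes). Of those genes 2.64% were called higher and 0.0436% lower. All 5 members had on average at least 40% of untreated reads from RNA made in the hour, as described below. Among the 906 genes with such a share, 24.3% were called higher. The call of 1 of 5 members was not tested against either background. An exact permutation test on BTG1 alone gave p = 0.1, two-sided, which is the smallest that 3 against 3 libraries allow. Leaving out emetine replicate 3 gave 0.57 (adjusted p = 4.4e-05, edgeR), but leaving out any untreated library or emetine replicate 1 ended the call, with adjusted p from 0.0647 to 0.131 and log2 fold changes from 0.50 to 0.57. After each library's dependence on the length and GC content of transcripts was removed, the log2 fold change was 0.35 (adjusted p = 0.0494, edgeR). With replicate number as a block the call was lost. When libraries were scaled to spike-in reads, which made up 0.304% to 0.728% of reads, the median of all genes shifted to 0.71 and BTG1 to 1.22 (adjusted p = 0.173, edgeR).

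The other 4 members did not pass the test. BTG2, the p53 target, had 16.8, 17.8 and 20.1 CPM in untreated cells and 18.8, 24.3 and 22.6 CPM with emetine. Its groups overlapped, with a log2 fold change of 0.27 (SE 0.13, adjusted p = 0.255). BTG3, also called ANA, had 18.5, 19.3 and 25.2 CPM untreated and 22.0, 21.4 and 19.0 CPM with emetine. Its groups overlapped almost fully, at −0.01 (SE 0.14). TOB1, the founding member of the TOB branch, had 23.6, 26.5 and 31.9 CPM untreated and 24.9, 25.8 and 33.0 CPM with emetine, again overlapping, at 0.03 (SE 0.149). TOB2, its closest paralog, had 49.5, 56.6 and 58.7 CPM untreated and 53.2, 55.9 and 71.2 CPM with emetine. The highest value was in emetine replicate 3, and the log2 fold change of 0.13 (SE 0.127) went to −0.0045 without it. The median over the 5 members was 0.13, against 0.03 over all genes tested. With spike-in scaling these 4 genes were at 0.69 (BTG3) to 0.91 (BTG2), beside the shifted median of 0.71.

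The share of an mRNA made during the hour was read from T-to-C conversions. TimeLapse chemistry recodes s4U so that newly made RNA is read with C in place of T. Without s4U, 1.39% to 2.77% of the members' reads carried at least 1 conversion. With s4U, conversions were common in all 5 genes. In untreated cells, BTG1 had at least 1 conversion in 40.7% (95% Wilson interval 38.2 to 43.2), 49.8% (47.5 to 52.1) and 56.8% (54.1 to 59.6) of its reads. The emetine libraries of BTG1 gave 44.9%, 47.5% and 48.0%, within that range. In TOB2 the share was 63.3% (60.7 to 65.8), 72.0% (70.0 to 73.9) and 73.5% (71.0 to 75.9) in untreated cells. With emetine it was 45.2% (42.9 to 47.5), 49.5% (47.4 to 51.5) and 48.3% (46.1 to 50.6), below every untreated library. The intervals cover counting error only. Reads with at least 2 conversions, which errors seldom give, moved the same way in TOB2, from 59.7% ± 4.83 (SD, n = 3) to 37.2% ± 2.95. A TOB2 read covered 39.7 ± 4.13 T positions on average in untreated and 36.2 ± 5.51 in emetine libraries (SD, n = 3), and the share of its T positions that were converted fell from 6.81% ± 0.327 to 4.37% ± 0.149.

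The other 3 genes lay between these extremes. TOB1 reads carried a conversion in 59.3% (55.5 to 63.0), 69.9% (66.8 to 72.7) and 70.0% (66.4 to 73.3) of cases in untreated cells, and in 51.8% (48.5 to 55.1), 54.7% (51.6 to 57.7) and 60.02% (56.7 to 63.2) with emetine, from 658 to 1033 reads per library. Emetine replicate 3 of TOB1 was above untreated replicate 1, within overlapping intervals, and the other emetine values were below every untreated value. BTG2, which had the fewest reads, carried a conversion in 50.5% (46.0 to 55.0), 69.6% (65.9 to 73.1) and 62.1% (57.4 to 66.6) of untreated reads and 55.6% (51.8 to 59.4), 62.1% (59.0 to 65.0) and 64.6% (60.7 to 68.3) of emetine reads. The 3 untreated libraries of BTG2 differed more from each other than the group means did. BTG3 carried a conversion in 59.7% (55.4 to 63.8), 66.1% (62.5 to 69.6) and 70.0% (66.0 to 73.8) of untreated reads and in 64.9% (61.4 to 68.2), 70.2% (67.0 to 73.1) and 58.9% (54.6 to 63.1) of emetine reads, so its groups overlapped.

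The share of reads with 2 or more conversions was 58.6% ± 5.53 (SD, n = 3) untreated and 46.5% ± 3.74 with emetine in TOB1, without overlap between libraries. It was 41.5% ± 6.07 and 39.7% ± 1.73 in BTG1, 52.6% ± 8.09 and 52.2% ± 3.45 in BTG2, and 56.3% ± 2.25 and 57.0% ± 6.61 in BTG3, each with overlap. Without s4U, 2 untreated reads and 1 emetine read of BTG1 and 2 untreated reads of BTG2 carried 2 conversions or more, and 0 of the 671 to 1869 reads per library of BTG3, TOB1 and TOB2 did, which allows a share of up to 0.161% to 0.447%.

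**Figure D2:**
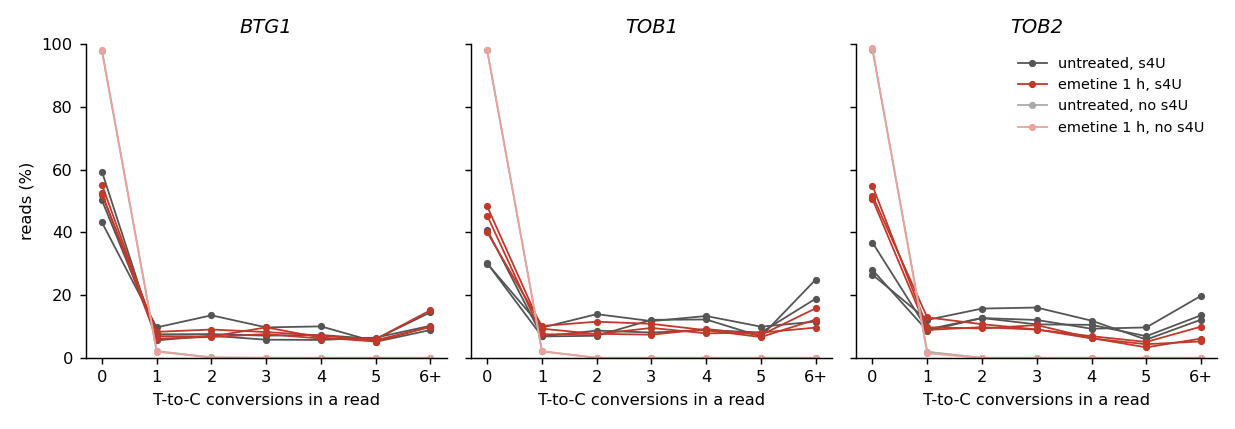
Share of the reads of BTG1, TOB1 and TOB2 with 0 to 5, or 6 and more, T-to-C conversions, 1 line per library of the 1 h experiment. The libraries without s4U, whose 2 lines lie on each other, have nearly all reads at 0 conversions, and the emetine lines of TOB2 start above its untreated lines.

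All 5 mRNAs turned over quickly in untreated cells. The fraction new is the share of reads that a mixture of converted and unconverted reads assigns to RNA made in the hour. Its mean in untreated cells was highest in TOB2 (72.7% ± 6.40, SD, n = 3), followed by TOB1 (67.9% ± 6.54), BTG3 (66.9% ± 5.89), BTG2 (61.3% ± 8.83) and BTG1 (48.9% ± 9.24). Each neighbour in this order overlapped the next between libraries. The median over 10763 genes was 12.2%, and the members lay above 94.8% (BTG1) to 98.8% (TOB2) of them. At steady state these values correspond to half-lives of 64.1 ± 17.2 min for BTG1, 44.8 ± 11.5 min for BTG2, 37.9 ± 6.21 min for BTG3, 37.0 ± 6.93 min for TOB1 and 32.3 ± 6.01 min for TOB2. Untreated replicate 1 gave the lowest fraction new for every member, as it did for the median gene.

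**Figure D3:**
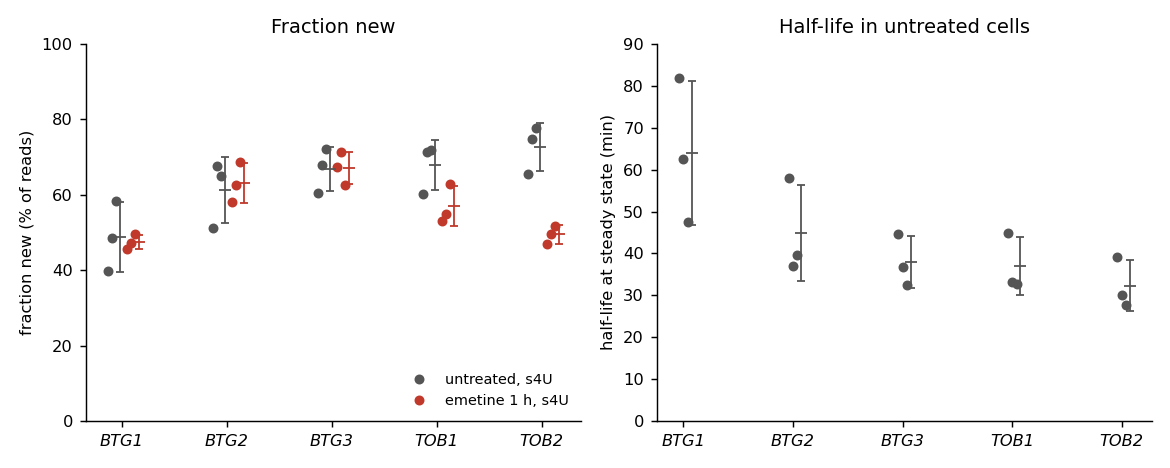
Fraction new per library with the mean and SD of 3 (left), and half-life computed from it under steady state in the untreated libraries (right). The emetine points of TOB2 lie between 46.9% and 51.8%, below its untreated points at 65.5% to 77.7%, while the points of BTG1, BTG2 and BTG3 overlap.

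The second question was whether emetine changed the balance of new and old RNA. TOB2 was the only member called, and its fraction new fell. It was 65.5%, 74.9% and 77.7% in the untreated libraries and 46.9%, 49.7% and 51.8% in the emetine libraries, with no overlap. The change on the logit scale was −1.02 (SE 0.249, adjusted p = 0.00572, limma over 10763 genes), lower than in all but 1.53% of genes. Of all genes 4.83% were called lower and 0.214% higher. Without emetine replicate 3 the change was −1.06 (adjusted p = 0.0493, limma), and without untreated replicate 2 or 3 or emetine replicate 1 or 2 it was −0.89 to −1.02 with adjusted p from 0.0675 to 0.116, which did not pass. The exact permutation test on TOB2 alone gave p = 0.1, the smallest possible.

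TOB1 had a fraction new of 60.3%, 71.4% and 71.9% untreated and 53.1%, 54.9% and 62.9% with emetine. Its groups overlapped through 1 library on each side, and the logit change of −0.48 (SE 0.25, adjusted p = 0.334) did not pass. Without untreated replicate 1 the change was −0.64 and passed (adjusted p = 0.0217, limma). BTG1 had 39.8%, 48.5% and 58.3% untreated and 45.7%, 47.3% and 49.5% with emetine, at −0.05 (SE 0.235). BTG2 had 51.2%, 67.5% and 65.1% untreated and 58.2%, 62.6% and 68.6% with emetine, at 0.08 (SE 0.252). BTG3 had 60.6%, 67.8% and 72.2% untreated and 67.4%, 71.3% and 62.7% with emetine, at 0.01 (SE 0.254). In these 3 BTG genes the emetine values fell among the untreated ones or close to them. The median over the members was −0.05, against −0.16 over all genes. After emetine BTG3 (67.1% ± 4.31) and BTG2 (63.1% ± 5.26) had the highest fraction new, and TOB2 (49.5% ± 2.43) and BTG1 (47.5% ± 1.93) the lowest.

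The level and the fraction new were combined into labeled reads, made in the hour, and unlabeled reads, present before it. In TOB2 the unlabeled reads rose 2.04-fold, from 17.1, 14.2 and 13.1 CPM to 28.2, 28.1 and 34.3 CPM. All emetine libraries were above all untreated ones. The change was 1.01 on the log2(CPM + 0.5) scale (SE 0.142, adjusted p = 0.00435, limma). It passed the test with any 1 library left out and under each setting tried, with adjusted p of at most 0.0344 (limma). These settings were 0.1 or 1 CPM added before log2, a minimum of 500 reads, median centering and replicate number as a block. All kept the TMM scaling. Spike-in scaling and other estimates of the fraction new were not tried on unlabeled reads. Labeled TOB2 reads were 32.4, 42.4 and 45.6 CPM untreated and 25.0, 27.8 and 36.8 CPM with emetine. Their groups overlapped, and the log2 change of −0.43 (SE 0.217, adjusted p = 0.409) did not pass, except without untreated replicate 1, where it was −0.57 (adjusted p = 0.0277, limma).

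In BTG1 the unlabeled reads were 32.6, 27.4 and 24.0 CPM untreated and 45.0, 42.0 and 38.3 CPM with emetine, without overlap. They rose by a log2 of 0.58 (SE 0.133, adjusted p = 0.0336, limma). Labeled BTG1 reads were 21.5, 25.8 and 33.5 CPM untreated and 37.9, 37.7 and 37.6 CPM with emetine, also without overlap, with a similar log2 change of 0.50 (SE 0.218) that did not pass (adjusted p = 0.314, limma). With fraction new centered per library on the median logit, the labeled change was 0.58 and passed (adjusted p = 0.0112, limma). The unlabeled call was lost with a minimum of 500 reads per library, which tests fewer genes (0.58, adjusted p = 0.059, limma). Replicate number as a block also ended the call. It was also lost without untreated replicate 2 or 3 or emetine replicate 1 or 2, at adjusted p from 0.0582 to 0.159, and was kept without emetine replicate 3 (0.64, adjusted p = 0.00206, limma). BTG1 thus had higher values in both pools, and TOB2 in the unlabeled pool.

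In TOB1 the unlabeled reads were 9.36, 7.59 and 8.96 CPM untreated and 11.7, 11.6 and 12.2 CPM with emetine. The groups did not overlap, but the log2 change of 0.44 (SE 0.134) missed the threshold (adjusted p = 0.0879, limma). Unlabeled BTG2 reads were 8.21, 5.78 and 7.01 CPM untreated and 7.89, 9.11 and 7.07 CPM with emetine, overlapping. Unlabeled BTG3 reads were 7.29, 6.21 and 6.997 CPM untreated and 7.17, 6.14 and 7.08 CPM with emetine, with differences between groups smaller than those within them. Over 10763 genes the unlabeled reads were called higher in 7.30% and lower in 0.0929%, and the labeled reads higher in 0.26% and lower in 0.632%. Of the 5 members, 2 were called higher in unlabeled reads and 0 in labeled reads, where limma gave an unadjusted p under 0.05 for 1 member. The median of the members was 0.44 for unlabeled reads, against 0.04 over all genes, and 0.00 for labeled reads, against −0.14 over all genes.

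**Figure D4:**
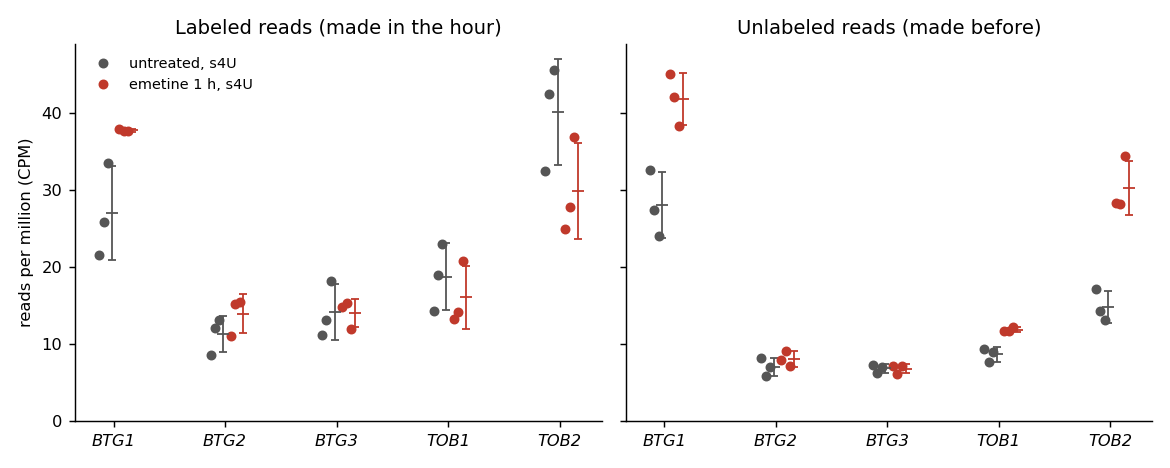
Labeled and unlabeled reads of each member in the 6 libraries with s4U, in CPM, with the mean and SD of 3. Unlabeled TOB2 lies at 13.1 to 17.1 in untreated and 28.1 to 34.3 in emetine libraries, and both pools of BTG1 lie higher with emetine.

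**Figure D5:**
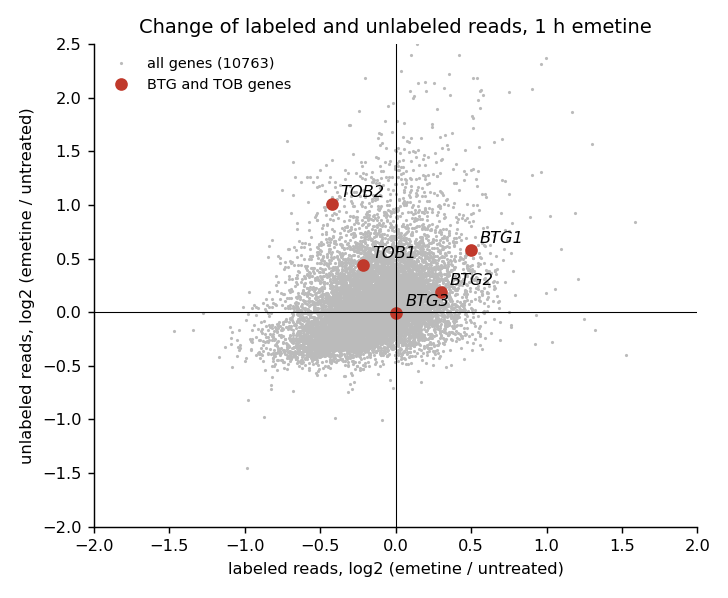
Log2 change of labeled against unlabeled reads for 10763 genes (grey; 12 lie outside the axes) and the 5 members (red). BTG1 lies to the upper right (0.50 and 0.58), TOB2 to the upper left (−0.43 and 1.01) and BTG3 at the origin.

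High turnover was shared with many genes that changed. Of the 906 genes with an untreated fraction new of at least 40%, 24.3% were called higher in level, against 2.79% of all 10763 genes with enough reads, and their median log2 change was 0.42. Against that median BTG1 at 0.53 was close, and BTG2, BTG3, TOB1 and TOB2 were below it. Among the same genes 57.4% were called higher in unlabeled reads, with a median log2 change of 0.77. TOB2 at 1.01 was above that median, and BTG1 (0.58), TOB1 (0.44), BTG2 (0.19) and BTG3 (−0.01) were below it. In fraction new 39.8% of the same genes were called lower, with a median logit change of −0.65. BTG1, BTG2 and BTG3 had logit changes of −0.05, 0.08 and 0.01, TOB1 had −0.48 and TOB2 −1.02. The set was chosen on the untreated fraction new, which enters the counts of unlabeled reads and of fraction new, and no test was made on it.

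The effect of emetine without s4U rested on 1 library per arm, and the 4-group edgeR model assumes that these libraries vary like the replicated groups. BTG1 was 57.7 CPM in the untreated and 94.5 CPM in the emetine library, a log2 difference of 0.71. BTG2 was 19.9 and 26.0 CPM (0.39) and TOB2 57.2 and 58.8 CPM (0.04). BTG3 (28.5 and 21.6 CPM, −0.40) and TOB1 (33.1 and 24.5 CPM, −0.43) were lower in the emetine library. The difference between the emetine effects with and without s4U was largest in TOB1 (0.46, SE 0.299) and BTG3 (0.39, SE 0.277), both with adjusted p = 0.986 (edgeR). The effect of s4U itself on untreated cells was −0.44 in BTG3 (SE 0.192, adjusted p = 1, edgeR) and between −0.28 and −0.06 in the others. In both comparisons edgeR called 0 of 14102 genes (0%), with 463 genes for s4U and 597 for the difference at an unadjusted p under 0.05. DESeq2 called 3 and 6 genes, respectively, and no member among them.

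The genes most like each member were taken by the root mean square difference over 12 log2 values, the labeled and unlabeled reads of the 6 libraries, each relative to the untreated mean. For BTG1 these were DCLRE1C (0.0996), GORAB (0.115) and RSRC2 (0.116), and for TOB2 MARS2 (0.0816), FAM46A (0.0855) and GSG2 (0.0968). TOB1 was nearest to KLHL11 (0.0752), C3orf58 (0.0855) and ZFAND5 (0.1), BTG2 to POLE2 (0.115), ATRIP (0.139) and SLITRK3 (0.14), and BTG3 to CWF19L1 (0.0696), PDHX (0.0794) and MCCC2 (0.0823). Between members the smallest differences were BTG1 to BTG2 (0.274) and BTG2 to BTG3 (0.28), and TOB1 to TOB2 was 0.321. No member was among the 3 nearest genes of another.

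A list of 20 deadenylation partners was read next, of which 19 were tested for level and 16 for fraction new. It held subunits of the deadenylase complexes as well as proteins that BTG and TOB bind, so a gene on it need not code for a direct binder. In level edgeR called 1 higher and 0 lower (5 and 2 at an unadjusted p under 0.05), and the median log2 change was 0.13. The called gene was CNOT4, the ubiquitin ligase that associates with CCR4-NOT, with 27.2 ± 2.31 CPM (SD, n = 3) untreated and 43.5 ± 6.43 CPM with emetine (log2 0.68, adjusted p = 0.0302, edgeR). In fraction new limma called 0 higher and 2 lower, the only ones with an unadjusted p under 0.05, with a median logit change of −0.15. CNOT4 fell from 46.0% ± 8.61 to 22.1% ± 3.38 (adjusted p = 0.000564, limma), and PAN3, the regulatory subunit of the PAN2-PAN3 deadenylase, from 25.1% ± 7.02 to 13.7% ± 2.27 (adjusted p = 0.0262, limma). Without emetine replicate 3, CNOT4 kept both calls (log2 0.56 in level, adjusted p = 0.000447, edgeR, and logit −0.99 in fraction new, adjusted p = 0.0304, limma), and PAN3 lost its call (logit −0.62, adjusted p = 0.266, limma). CNOT2, a scaffold subunit of CCR4-NOT, had a fraction new of 15.4% ± 2.47 untreated and 11.3% ± 1.32 with emetine (adjusted p = 0.423, limma). PAN2, the catalytic subunit of PAN2-PAN3, had 8.33% ± 2.22 and 6.28% ± 1.86 (adjusted p = 0.566, limma). The CAF1 deadenylases that BTG proteins bind did not pass in level, with log2 changes of −0.11 (SE 0.0796) for CNOT7 and −0.06 (SE 0.0816) for CNOT8. PABPC1, the poly(A)-binding protein that TOB1 and TOB2 bind, had 862 ± 42.7 CPM untreated and 731 ± 21.7 CPM with emetine (log2 −0.24, adjusted p = 0.205, edgeR, and 0.0268 without emetine replicate 3). CPEB3, an RNA-binding protein that recruits TOB, had 1.55 ± 0.376 and 2.99 ± 0.831 CPM (log2 0.92, adjusted p = 0.126, edgeR).

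Among 34 immediate early and primary response genes, 31 were tested for level, and edgeR called 11 higher and 0 lower (19 and 0 at an unadjusted p under 0.05), with a median log2 change of 0.64. JUN, an AP-1 subunit, rose from 122 ± 3.17 CPM (SD, n = 3) to 1040 ± 217 CPM (log2 3.10, adjusted p = 7.86e-05, edgeR). DUSP1, a MAP kinase phosphatase, rose from 39.9 ± 5.79 to 239 ± 47.7 CPM, ATF3 from 23.0 ± 4.27 to 86.4 ± 4.23 CPM and IER2 from 27.2 ± 1.92 to 52.3 ± 4.19 CPM. Each of the 11 kept its call without emetine replicate 3, JUN at a log2 of 2.93. BTG1 at 0.53 thus lay below the list's median, and BTG2 at 0.27 further below. Of 22 list genes tested for fraction new, 1 was called higher and 4 lower. The fraction new of JUND rose from 26.9% ± 6.13 to 63.8% ± 2.70, and that of KLF6 (93.2% ± 1.79 to 78.6% ± 1.19), IER5 (77.7% ± 6.61 to 55.5% ± 2.26) and ZFP36L2 (86.5% ± 5.58 to 72.5% ± 1.92) fell. Without emetine replicate 3, JUND, KLF6 and IER5 kept the call, and it was lost for ZFP36L2 (adjusted p = 0.162, limma) and for KLF4, the remaining gene called lower (adjusted p = 0.0762, limma). In labeled reads 7 of the 22 were called higher and in unlabeled reads 12, with medians of 0.36 and 0.83 on the log2 scale. Over all 10763 genes 0.26% were called higher in labeled and 7.30% in unlabeled reads. Among the 906 genes with an untreated fraction new of at least 40%, these shares were 1.88% and 57.4%. The list was not tested against either background.

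Reads that cross a splice junction were counted as a check on the gene assignment. They made up 34.5% of BTG3 reads, 5.20% of BTG1 reads, 2.69% of BTG2 reads, 0.788% of TOB1 reads and 0.579% of TOB2 reads. The antisense gene TOB1-AS1 had 12 to 43 reads per library, against 658 to 1033 for TOB1, and the pseudogene TOB2P1 had 60 to 153, against 1243 to 2238 for TOB2. Whether strand was used in counting is not given in the sources used here, so TOB1 and TOB1-AS1 reads could not be told apart with certainty, and TOB2 shares sequence with TOB2P1. BTG4, the remaining gene of the family, was not listed in the 1 h or 2 h tables.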

How the data were processed

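The 1 h libraries came from a stranded poly(A) kit (TruSeq). Adapter removal by the authors used cutadapt, alignment to hg38 used hisat-3n, and conversions were tallied with bam2bakR. The deposited values are read counts by gene, number of T positions and T-to-C conversions, without normalization. Row numbers of this table are not consecutive, so counts and read totals are those of the rows used here, which may be part of the table. For the 2 h experiment the deposited signal is the authors' mean of counts normalized to spike-in reads over all 2 h libraries. Their columns of fold changes, standard errors and p-values hold their own comparisons and were not used, and the spike-in size factors were not used.

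Gene totals were tested with edgeR 4.0.16 (TMM, quasi-likelihood test, SE from the F statistic) for genes with more than 100 counts. Fraction new was fitted per gene and library as a 2-component binomial mixture, with a minimum of 100 reads per library. The background rate came from the library without s4U of the same treatment. Its logit, bounded at 0.001 and 0.999, and log2(CPM + 0.5) of both read pools, relative to library size, were tested with limma 3.58.1 (trend, robust). P-values were adjusted over all genes tested, and calls were made at an adjusted p under 0.05. DESeq2 1.42.0 was an alternative. Half-life was −ln2 divided by the logarithm of 1 minus the fraction new. Total gene reads per library set the counting precision, and 95% Wilson intervals cover counting error only. Of 19222 gene symbols, 17152 matched GENCODE 44, 1127 by an older symbol, and 943 did not match. In simulated data, edgeR recovered 88.9% of 99 genes changed by a log2 of 1 and 32% of 100 changed by 0.5, among 13693 genes, and limma 83.5% of 200 genes changed by a logit of 1, among 3000 genes. The simulation of fraction new gave all genes the same spread and all libraries the same new-read rate. The real libraries had rates of 8.49% to 9.53%, so recovery in them may be lower. Always named were the 5 members and BTG4. From each of the 2 lists, the 4 genes with the smallest p in level and in fraction new were named, and CNOT7 and CNOT8 were added as known partners after their values were seen. The 3 nearest genes per member were also named. The members, lists and tests were chosen with earlier results of these data known. The search for AU-rich heptamers in BTG2 is not reported here.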

Additional observations from a re-analysis of the deposited data

How the results depend on the processing

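The number of members called in level was 1, and it was 0 with spike-in scaling, 0 with the replicate block and 0 to 1 with each library left out. BTG1 alone was concerned: its adjusted p (edgeR) was 0.173 with spike-in scaling and 0.0757 with the replicate block. For fraction new the count of 1 became 0 to 2 with each library left out. For labeled reads the count of 0 became 1 with median centering and 0 to 1 with each library left out. For unlabeled reads the count of 2 became 1 with at least 500 reads, 1 with the replicate block and 1 to 2 with each library left out. Deviations of same-numbered untreated and emetine libraries correlated at 0.0892, 0.00707 and −0.137, which cannot settle whether replicate numbers pair the samples. In both arms with s4U, replicate 2 had the most reads and the most T positions per BTG1 read (52.6 untreated and 49.0 with emetine). The block moved calls over all genes from 363 to 75 higher in level and from 786 to 350 higher in unlabeled reads. Signs turned in results that were near 0 and not called, also for BTG1 and TOB2, which were called in other comparisons. BTG3 level was 0.69 with spike-in scaling, 0.00027 with the block and 0.065 with the length and GC trend removed. With the share of converted reads in place of the mixture, the fraction new change of BTG2 was −0.013 and that of BTG3 −0.032. With median centering that of BTG1 was 0.072. With each library left out, level ranged from −0.093 to 0.14 in BTG3, −0.10 to 0.15 in TOB1 and −0.0045 to 0.21 in TOB2. Fraction new ranged from −0.24 to 0.14 in BTG1, −0.14 to 0.21 in BTG2 and −0.13 to 0.13 in BTG3. BTG3 ranged from −0.15 to 0.19 in labeled and −0.070 to 0.059 in unlabeled reads. The s4U effect of TOB2 ranged from −0.11 to 0.011 and its difference between the emetine effects with and without s4U from −0.053 to 0.17. Of 322 member values under alternatives, 278 kept direction and side of the threshold, but most of these belonged to results that were not called. With each library left out, BTG1 level, BTG1 unlabeled reads and TOB2 fraction new each kept the call in 2 of 6 fits, and TOB2 unlabeled reads in 6 of 6. Under the other settings they kept it in 5 of 7, 3 of 5, 6 of 6 and 5 of 5, in that order. Over all genes, calls in level numbered 60 higher and 0 lower with spike-in scaling, 820 and 156 with DESeq2, 758 and 556 with the length and GC trend removed, and 1367 and 525 without emetine replicate 3. The causes of these changes were not tested. In simulated data a log2 change of 0.5 was recovered in 32% of genes, so changes of that size can be missed with 3 libraries per group.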
